A study of Mus musculus with 10 samples.

Results

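The AP-2 transcription factor family was followed across all 10 libraries of the series. Its members were taken by gene symbol from the deposited table, which held 53801 genes, and all 5 were found: Tfap2a, Tfap2b, Tfap2c, Tfap2d and Tfap2e. The family was selected on the NG2 against GFAP read counts of Tfap2d, which had stood out in an earlier comparison, so that contrast, with any call it gives for a member, is a description here and supports nothing. The cells came from wild-type mouse dorsal brain, electroporated in utero (IUE) at E12 with StarTrack, plasmids whose integrated fluorescent reporters mark the progeny of single progenitors, and sorted by flow cytometry at E14. Of the 10 libraries, 5 were from cells sorted as NG2+ and 5 from cells sorted as GFAP+, all from batch 1. Genotype, electroporation and day of sorting were shared by both groups, and untreated cells were not among them. Neural stem cells is the cell type given for every sample. The labels name neither the promoters of the reporters nor the reagents of the sort, and they do not give the number of embryos behind a library, so p-values measure the spread between these libraries, which may be technical.

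AP-2 proteins bind GC-rich DNA as dimers, through a helix-span-helix region near the C-terminus, and can activate or repress transcription. They are best known from neural crest, surface ectoderm and placodes. In the developing cortex Tfap2c is known from radial glia, the progenitors that line the ventricle, where it promotes the formation of basal progenitors. Tfap2d is best known from the tectum of the midbrain, Tfap2b from kidney and neural crest, Tfap2a from neural crest and epidermis, and Tfap2e from the olfactory system.

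The group labels were set beside the genes they are named after. Cspg4, which encodes NG2, averaged 6.75 ± 1.47 CPM (reads scaled to library size) in the NG2 group, against 1.07 ± 0.356 CPM in the GFAP group (SD, n = 5 each), with no overlap. Gfap had 6 reads in the NG2 and 10 in the GFAP group, so the transcript that the GFAP group is named after was near 0 in both. Markers of newborn cortical neurons were abundant in all libraries, with sums between 4282 and 7407 CPM. Library totals ran from 12945436 to 17569730 reads. NG2 5 had reads in 18903 genes, against 22988 to 24444 in the other 9 libraries, and its log2 CPM correlated with theirs at 0.919 to 0.929 across genes, against 0.968 to 0.986 for the pairs without it.

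Tfap2d and Tfap2b are neighbours on chromosome 1 on the same strand, 42567 bases apart, and their levels in these cells lay far apart. Tfap2d lies at chr1:19103022-19166346 and Tfap2b at chr1:19208914-19238576 (GRCm38). To show annotated starts of these neighbouring genes, the 250 bases before a start are printed below, 5′ to 3′ on the plus strand. They come from the RefSeq promoter table of GRCm38.p6. Capitals mark E-boxes (CANNTG, a palindromic motif and so the same on both strands), the core bound by bHLH factors such as the neurogenins.
Tfap2d, first start, chr1:19102772-19103021: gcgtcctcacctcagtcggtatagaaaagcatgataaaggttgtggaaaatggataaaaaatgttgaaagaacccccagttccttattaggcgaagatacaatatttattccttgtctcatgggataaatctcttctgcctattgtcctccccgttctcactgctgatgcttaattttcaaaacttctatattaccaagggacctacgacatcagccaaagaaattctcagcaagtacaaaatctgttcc
Tfap2d, internal start, chr1:19103883-19104132: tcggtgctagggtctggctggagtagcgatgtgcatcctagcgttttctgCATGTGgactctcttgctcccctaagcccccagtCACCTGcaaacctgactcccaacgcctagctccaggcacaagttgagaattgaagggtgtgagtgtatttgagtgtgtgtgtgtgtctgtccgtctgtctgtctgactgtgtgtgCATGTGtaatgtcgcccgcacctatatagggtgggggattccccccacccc
Tfap2b, chr1:19211804-19212053: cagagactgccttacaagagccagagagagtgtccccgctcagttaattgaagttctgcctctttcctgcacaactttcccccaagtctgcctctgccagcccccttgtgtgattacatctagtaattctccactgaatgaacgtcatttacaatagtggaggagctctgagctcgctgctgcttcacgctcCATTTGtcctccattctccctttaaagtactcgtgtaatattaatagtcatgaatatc
The window before the first Tfap2d start, which is also the start of the gene in the deposited table, held 0 E-boxes and had a GC content of 39.6%, against a median of 52.4% over the 32851 windows of the table. The Tfap2b start used, at 19212054, is internal as well, since the gene begins at 19208914 in the deposited table. The window before the internal Tfap2d start held 3 E-boxes and the Tfap2b window 1, and 66.2% of all windows held at least 1. The AP-2 consensus GCCNNNGGC, which is also palindromic, was found in 0 of the member windows searched, which covered Tfap2a, Tfap2b, Tfap2d and Tfap2e, and in 13.7% of all windows. These are matches of letters within 250 bases and show neither a bound site nor its absence.

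Only Tfap2c and Tfap2d were expressed well enough to pass edgeR's expression filter, as 16187 genes of the table did. Levels are compared between members as FPKM, reads scaled by gene length and sequencing depth, which the authors deposited. Averaged over the 10 libraries, Tfap2c was highest at 20.9 FPKM, followed by Tfap2d at 8.49, Tfap2e at 0.0806, Tfap2b at 0.0152 and Tfap2a at 0.00127 FPKM. Among the 1532 genes that the deposited table assigns to a transcription factor family, Tfap2c ranked 125 and Tfap2d 316 by this mean. In every library Tfap2c exceeded Tfap2d and Tfap2d exceeded the other 3, while the order among Tfap2a, Tfap2b and Tfap2e rests on a few reads and did not hold in every library. Transcripts of the 5 genes in GENCODE M21 shared 0 sequences of 31 bases in any of the 10 pairs, so exact matches of that length did not link the members.

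**Figure D1:**
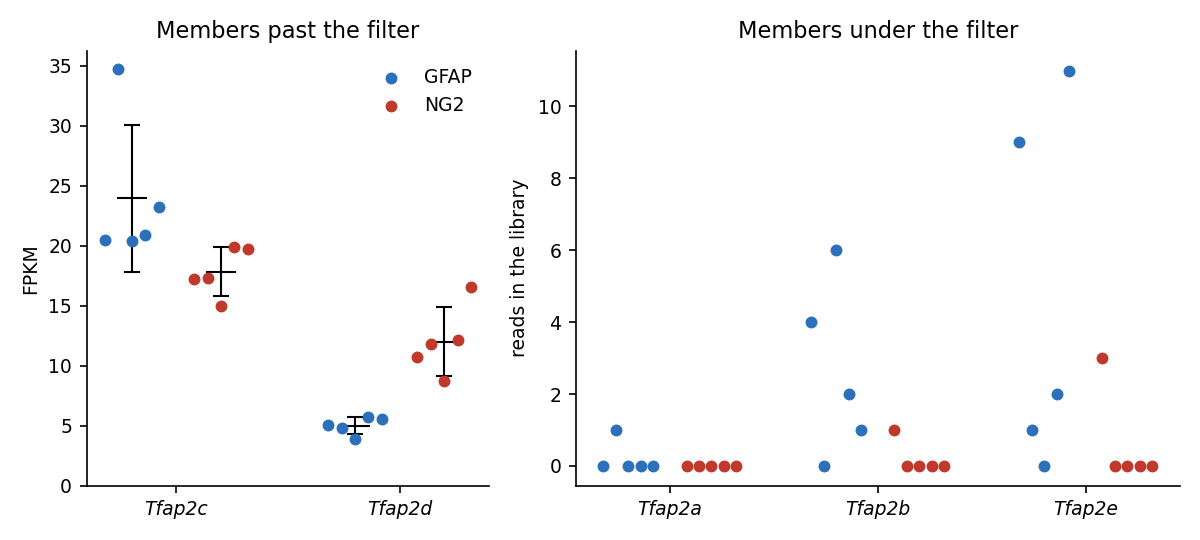
Left, FPKM of Tfap2c and Tfap2d in each library, with the mean and SD of 5 libraries per group. Right, reads of Tfap2a, Tfap2b and Tfap2e in each library. GFAP 2 stands at 34.7 FPKM of Tfap2c, and the 5 NG2 libraries lie above the 5 GFAP libraries for Tfap2d.

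Tfap2d (ENSMUSG00000042596) was higher in the NG2 libraries, by 2.38-fold. Its FPKM in NG2 1 to 5 was 10.7, 11.8, 8.76, 12.1 and 16.6, and in GFAP 1 to 5 it was 5.02, 4.77, 3.92, 5.69 and 5.55. The groups did not overlap, with NG2 5 the highest and NG2 3 the lowest of the NG2 group. In CPM, read counts scaled to library size with TMM factors, the means were 23.6 ± 5.75 in NG2 and 9.89 ± 1.42 in GFAP (SD, n = 5 each), from 1852 and 739 reads. The nearest libraries were NG2 3 at 17.2 CPM (exact 95% Poisson interval 15.1 to 19.5) and GFAP 4 at 11.3 CPM (9.59 to 13.1), so their counting intervals did not overlap. Reads were counted without molecular identifiers, and these intervals cover counting error only. The log2 fold change, NG2 minus GFAP, was 1.25 (SE 0.18). It lay between 1.09 and 1.35 under all 21 alternative settings listed in the closing section. The lowest of these values came without GFAP 2 and NG2 5. As these counts chose the family, neither the gap between the groups nor its persistence under other settings supports anything.

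Tfap2c (ENSMUSG00000028640, chr2:172549593-172558622, plus strand) stood lower in the NG2 libraries by a smaller amount. Its FPKM was 17.3, 17.3, 15.0, 19.9 and 19.8 in NG2 1 to 5 and 20.4, 34.7, 20.4, 20.9 and 23.3 in GFAP 1 to 5. The groups did not overlap, but GFAP 2 stood far above all other libraries and the remaining GFAP libraries lay close to NG2 4 and NG2 5. The CPM means were 66.0 ± 7.76 in NG2 and 89.3 ± 22.7 in GFAP (SD, n = 5 each), and the GFAP mean was 79.3 ± 5.18 without GFAP 2 (n = 4). At the edge, NG2 4 had 73.8 CPM (exact 95% Poisson interval 69.7 to 78.2) and GFAP 3 had 75.9 CPM (71.3 to 80.8), and these intervals overlapped. The log2 fold change was -0.44 (SE 0.15), and it was -0.26 without GFAP 2 and -0.19 by voom with sample weights.

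By edgeR's quasi-likelihood test, 0.148% of all tested genes passed an adjusted p of 0.05, 0.0741% as higher in NG2 and 0.0741% as lower, and 1 of the 2 tested members did, Tfap2d, as higher. The groups did not overlap in CPM for 3.28% of tested genes (1.52% with NG2 above, 1.76% with NG2 below) and for both tested members, Tfap2d above and Tfap2c below. Tfap2d no longer passed without GFAP 1, GFAP 2, GFAP 3 or NG2 2, where its log2 fold change was 1.26, 1.24, 1.18 and 1.26. Since this contrast led to the choice of the family, nothing is read from these calls, kept or lost. In the authors' deposited table the log2 fold changes were 1.27 for Tfap2d and -0.42 for Tfap2c. In bulk libraries, fewer cells that express a gene and less RNA per cell cannot be told apart.

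**Figure D2:**
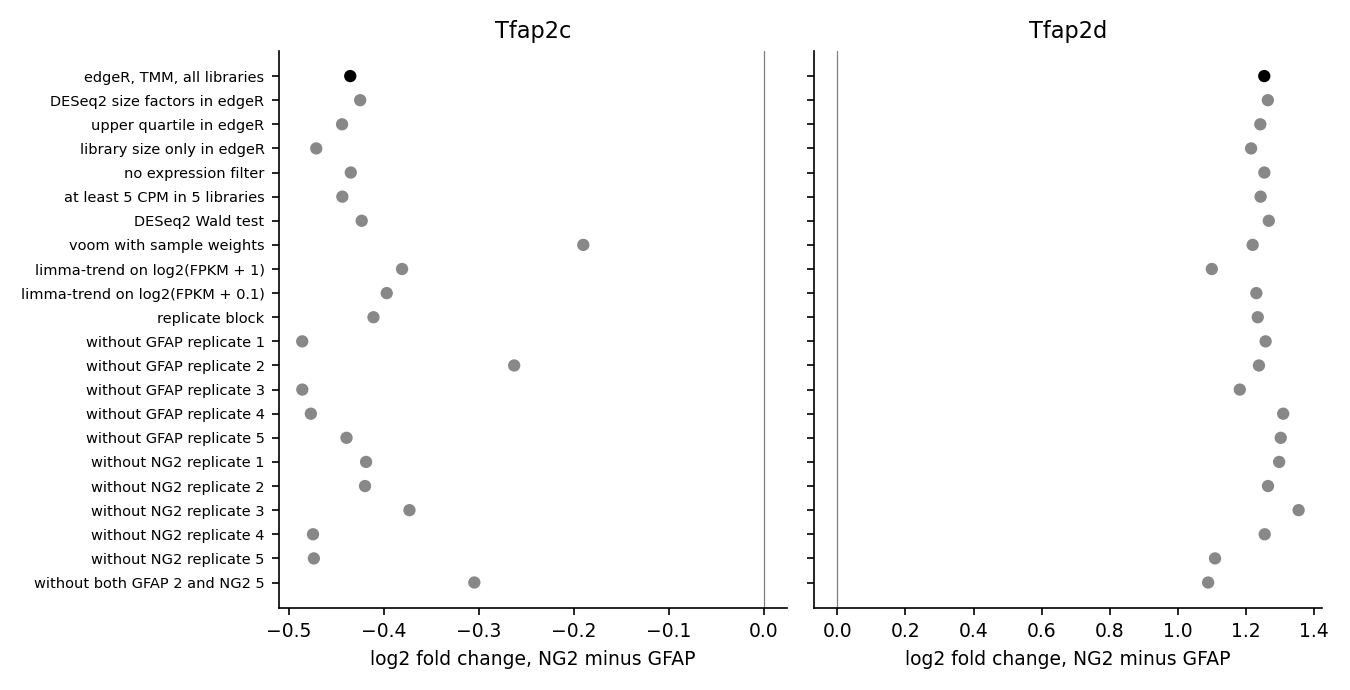
Log2 fold change, NG2 minus GFAP, of Tfap2c (left) and Tfap2d (right) under each setting, with the black point for edgeR on all libraries. All points for Tfap2d lie from 1.09 to 1.35 and those for Tfap2c from -0.49 to -0.19.

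The balance of the 2 expressed members differed between the groups, while Tfap2c stayed the higher in every library. The share and the ratio below use the Tfap2d counts that chose the family, so their difference between groups is a description and supports nothing. Tfap2d made up 36.9% to 45.6% of the summed AP-2 FPKM in NG2 and 12.1% to 21.3% in GFAP libraries. The ratio of Tfap2d to Tfap2c FPKM was 0.621, 0.684, 0.584, 0.608 and 0.839 in NG2 1 to 5 and 0.246, 0.137, 0.192, 0.273 and 0.239 in GFAP 1 to 5. The ratio was highest in NG2 5 and lowest in GFAP 2, and it averaged 0.624 ± 0.0425 without NG2 5 and 0.237 ± 0.0335 without GFAP 2 (SD, n = 4 each). The summed level of the family was 29.9 ± 4.67 FPKM in NG2 and 29.1 ± 6.08 FPKM in GFAP libraries (SD, n = 5 each) and overlapped widely.

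**Figure D3:**
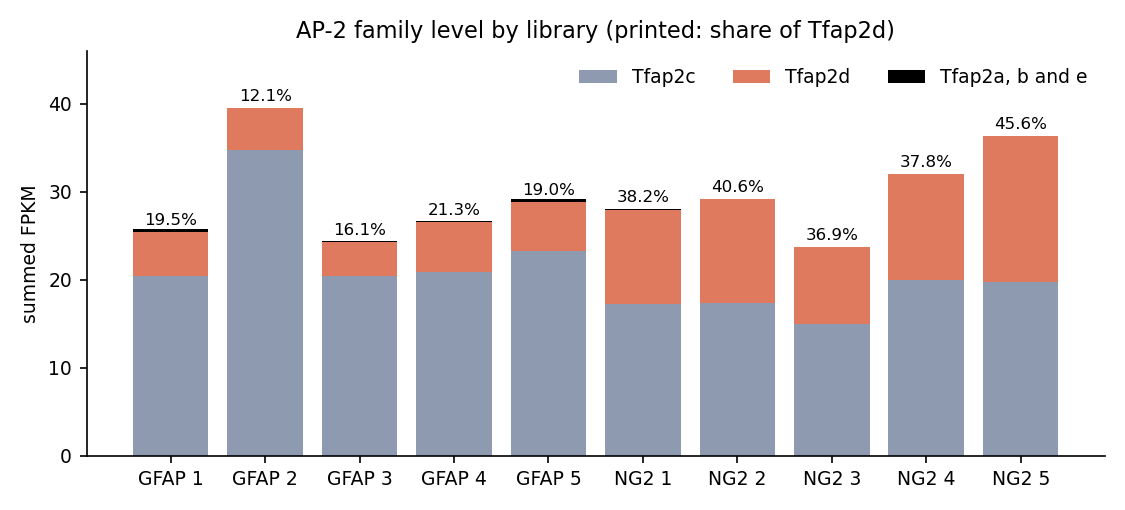
Stacked bars of the summed FPKM of the family in each library, with the share of Tfap2d printed above. Tfap2d takes 36.9% to 45.6% in the NG2 bars and 12.1% to 21.3% in the GFAP bars, while the bar heights of the groups overlap.

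Tfap2e, Tfap2b and Tfap2a were at the limit of detection. Tfap2e (ENSMUSG00000042477, chr4:126716006-126736240, minus strand) had 9, 1, 0, 2 and 11 reads in GFAP 1 to 5, and 3 reads in NG2 1 and 0 in the other NG2 libraries. Most of its reads came from GFAP 1 and GFAP 5, and the groups overlapped. Tfap2b (ENSMUSG00000025927) had 4, 0, 6, 2 and 1 reads in GFAP 1 to 5 and 1 read in the NG2 group, in NG2 1. Over the groups, the ratio of depth-scaled reads, GFAP over NG2, was 7.95 for Tfap2e (95% interval 2.40 to 41.4) and 13.5 for Tfap2b (2.03 to 573), from counting error alone, which leaves out the spread between libraries. Tfap2a (ENSMUSG00000021359, chr13:40715302-40738376, minus strand) had 1 read in all, in GFAP 2. The 0 reads of Tfap2a in the NG2 group allow a level of up to 0.0388 CPM over the group (3 reads), so no fold is given.

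Tfap2d overlaps 2 other annotated genes, both with few reads and with similar totals in the groups. Gm15825, an antisense gene, shares 171 exon bases with Tfap2d, 8.75% of the Tfap2d exons, and had 14 reads in the NG2 and 11 in the GFAP group. Gm10075 is a processed pseudogene within an intron, shares 0 exon bases with Tfap2d, and had 133 reads in NG2 and 137 in GFAP libraries. Its log2 fold change was -0.07 (SE 0.37, edgeR, Benjamini-Hochberg adjusted p = 0.960). The sources used here do not give the strand setting of the counting, and reads in the 171 shared bases cannot be assigned with certainty. Tfap2a overlaps 3 antisense genes, of which Gm47061 had 9 reads in all and Gm26688 and Gm47067 had 0.

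The genes around each locus were compared with the members. Gm10075 was the only tested gene within 500000 bases of Tfap2d. Around Tfap2c, 10 genes were tested, with log2 fold changes from -0.94 to 0.24 and a median of 0.01. The most abundant of these were Rae1, a nuclear export and mitotic factor (log2 fold change 0.24, SE 0.10), and Fam210b (-0.19, SE 0.12). Around Tfap2e the median of 21 tested genes was 0.08, and the most abundant were Psmb2, a proteasome subunit (0.13), and Sfpq, a splicing factor (-0.15). Around Tfap2a the median of 6 tested genes was 0.12, and the most abundant were Pak1ip1 and the fatty acid elongase Elovl2.

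Genes whose levels followed those of Tfap2c and Tfap2d across libraries were listed. Over the 10 libraries, 10459 protein-coding genes of at least 5 CPM were ranked by Pearson's r of log2 CPM with Tfap2c. The first was Topbp1, a replication checkpoint protein (r = 0.98, Spearman's rho = 0.96). High values were also found for the spindle factor Tpx2 (r = 0.975), the spindle protein Dlgap5 (0.974) and the recombination protein Rad54l (0.972). These 4 genes had r of at least 0.95 also after the group means were removed, and 75 genes had r above 0.9. Tfap2c and these 4 genes were highest in GFAP 2. That library stays in after removal of the group means, and r without it was not calculated.

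For Tfap2d the most similar gene was Mc4r, the melanocortin 4 receptor (r = 0.95, rho = 0.96). High values were also found for the neuronal surface protein Dner (r = 0.92), the mitochondrial assembly factor Coa7 (0.91) and the matrix protein Emilin1 (0.90). In all, 4 genes had r above 0.9. After removal of the group means r lay between 0.55 and 0.78 for these 4 genes, all of which had higher means in NG2. Ranking by likeness to Tfap2d, whose group difference chose the family, favours such genes, so their direction supports nothing. Tfap2c and Tfap2d themselves had r = -0.52 over the 10 libraries and 0.33 within groups. All of these are descriptions of 10 libraries, with many genes ranked.

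**Figure D4:**
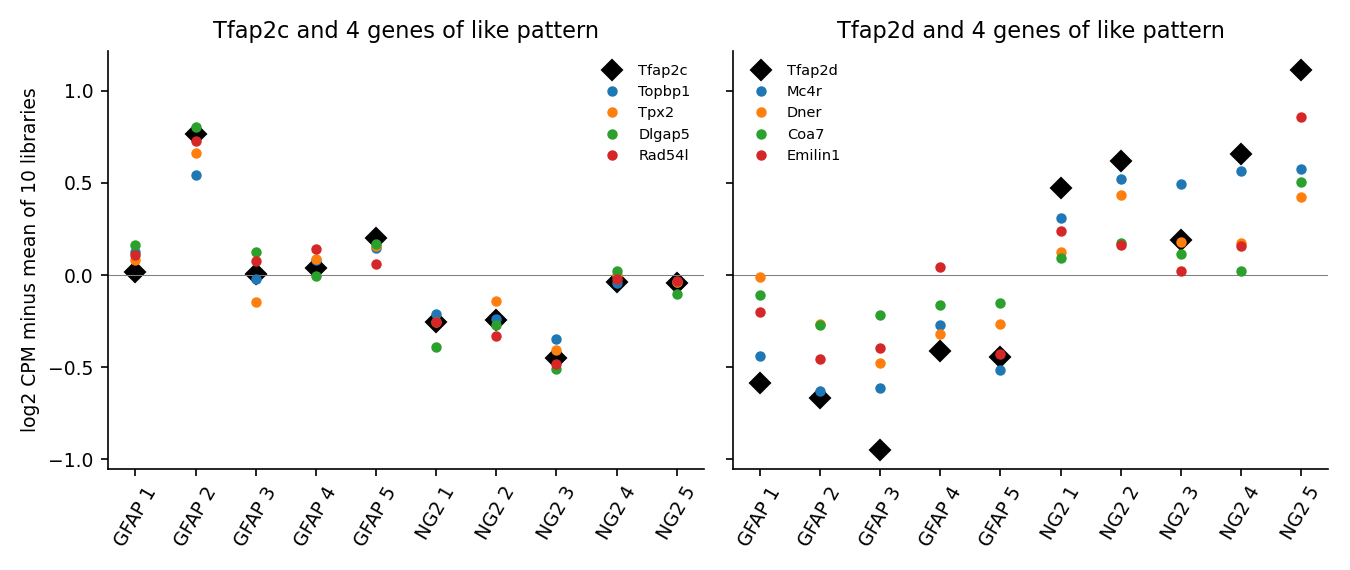
Log2 CPM of Tfap2c (left, black diamonds) and Tfap2d (right, black diamonds) and of 4 genes of like pattern for each, as the difference from the gene's mean over 10 libraries. GFAP 2 is the highest library for all 5 genes on the left. On the right the NG2 libraries lie above 0 for all 5 genes, which ranking by likeness to Tfap2d favours. For Emilin1 the groups overlap, with GFAP 4 at 0.045 and NG2 3 at 0.020.

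Markers of radial glia and newborn neurons were set beside both members. Over all tested genes, 51.5% had a negative log2 fold change and 12.8% an unadjusted p under 0.05 by edgeR, 6.45% as higher in NG2 and 6.33% as lower. DESeq2 called 1.39% of its tested genes higher and 0.896% lower, and voom called 3.61% higher and 5.29% lower. The 12 radial glia markers summed to 1096 to 1817 CPM in NG2 and 1682 to 2413 CPM in GFAP libraries, with GFAP 2 the highest, as for Tfap2c. All 12 had a negative log2 fold change (median -0.37, against -0.01 for all tested genes) and 0 passed by edgeR, with 6 at an unadjusted p under 0.05 (12.8% of all tested genes), 2 lower by DESeq2 and 0 by voom. The most abundant were Fabp7 (a glial fatty acid binding protein, log2 fold change -0.04, SE 0.19) and the intermediate filament genes Vim (-0.24, SE 0.15) and Nes (-0.60, SE 0.19). Within the groups, NG2 2 and NG2 3 had the lowest marker sums, 1096 and 1364 CPM, and Tfap2c of 63.9 and 55.4 CPM, while NG2 1 had 63.5 CPM of Tfap2c at a marker sum of 1811 CPM.

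The 11 newborn neuron markers found of 12 listed summed to 5309 to 7407 CPM in NG2 and 4282 to 5642 CPM in GFAP libraries. All 11 had a positive log2 fold change (median 0.31) and 0 passed by edgeR, with 6 at an unadjusted p under 0.05 (12.8% of all tested genes), 3 higher by DESeq2 and 4 by voom (1.39% and 3.61%). NG2 5, the library with the most Tfap2d at 32.7 CPM, had the lowest neuron sum of its group at 5309 CPM, within the GFAP range. NG2 3 had the highest neuron sum, 7407 CPM, and the least Tfap2d of its group, 17.2 CPM. The part of either marker list in the values of Tfap2c and Tfap2d was not tested.

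**Figure D5:**
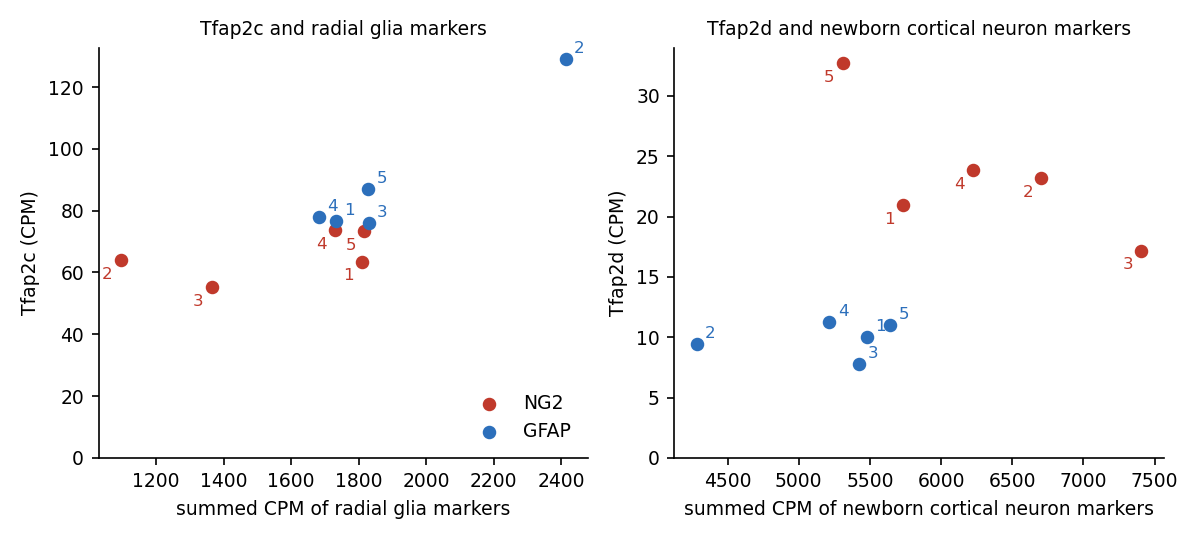
Left, Tfap2c CPM against the summed CPM of 12 radial glia markers, and right, Tfap2d CPM against the summed CPM of 11 newborn neuron markers, 1 point per library with its replicate number. GFAP 2 is the highest on both axes on the left, and on the right NG2 5 has the most Tfap2d at a neuron sum of 5309 CPM.

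Basal progenitor factors that are linked to Tfap2c in the cortex were compared next. Of 6 tested, 5 had a negative log2 fold change (median -0.30) and 0 passed by edgeR, with 3 at an unadjusted p under 0.05 (12.8% of all tested genes), 2 lower by DESeq2 and 1 by voom (0.896% and 5.29%). Pax6, 1 of the 3, is also a radial glia marker and was counted in that list too. Eomes, the T-box factor of basal progenitors, averaged 188 ± 22.3 CPM in the NG2 group, against 249 ± 8.66 CPM in the GFAP group (SD, n = 5 each), without overlap. Neurog2, a proneural factor, averaged 508 ± 25.1 CPM in the NG2 group, against 586 ± 89.5 CPM in the GFAP group, with overlap. Neurod1 had a log2 fold change of -0.02 (SE 0.11).

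Known inhibitors and partners of AP-2 proteins were all found in the table. Of 15 genes, 14 were tested, 6 with a negative and 8 with a positive log2 fold change (median 0.02). By edgeR 0 passed, with 1 at an unadjusted p under 0.05 (12.8% of all tested genes), 0 by DESeq2 and 1 lower by voom (5.29%). The inhibitors Kctd1 and Kctd15 stood at 12.3 ± 1.40 and 82.4 ± 19.1 CPM in NG2 and at 11.6 ± 1.38 and 73.5 ± 11.4 CPM in GFAP libraries (SD, n = 5). For the coactivator Cited2 the log2 fold change was 0.17 (SE 0.12). Both Kctd genes and Cited2 were named after their values were seen. Of 12 genes that AP-2 factors bind in other tissues, 9 were tested (median log2 fold change -0.10) and 0 passed by edgeR, with 2 at an unadjusted p under 0.05 (12.8% of all tested genes) and 0 by DESeq2 or voom. The most abundant were the receptor Kit, the survival factor Bcl2 and the growth factor Vegfa, at 43.1, 36.6 and 33.2 CPM in NG2 and 48.0, 39.8 and 39.2 CPM in GFAP libraries.

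Markers of cell types in which AP-2 genes are known were examined in turn. Tectum and dorsal midbrain markers, the tissue best known for Tfap2d, summed to 1.11 to 2.48 CPM in NG2 and 0.953 to 2.24 CPM in GFAP libraries. None of the 12 passed the expression filter, and Pax7, Pou4f2 and Pou4f3 had 0 reads, while Tfap2d stood at 7.74 CPM or more in every library. Neural crest and melanoblast markers summed to 72.8 to 92.1 CPM in NG2 and 95.1 to 113 CPM in GFAP libraries, largely from Kit and Ednrb, which other cells express too. Of 12, 4 were tested and 1 was lower by edgeR (0.0741% of all tested genes), Dct, an enzyme of melanin synthesis. Dct stood at 1.86 ± 0.704 CPM in NG2 against 7.98 ± 3.73 CPM in GFAP libraries (SD, n = 5, edgeR, Benjamini-Hochberg adjusted p = 0.0379). Foxd3 and Tyr had 0 reads. The Dct call was lost in 8 of the 10 fits without 1 library, all except those without NG2 4 or NG2 5, and by limma-trend with either pseudocount. DESeq2 called 1 of the list lower and voom 2 (0.896% and 5.29% of all genes each tested). All 4 tested had a negative log2 fold change (median -0.35), as did 51.5% of all tested genes.

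Meningeal fibroblast markers summed to 44.6 to 77.3 CPM in NG2 and 62.5 to 99.5 CPM in GFAP libraries, mostly from Foxp2, which cortical neurons express too. All 9 tested had a negative log2 fold change (median -0.69) and 0 passed by edgeR, with 3 at an unadjusted p under 0.05 (12.8% of all tested genes), 0 by DESeq2 and 1 lower by voom (5.29%). The sums were highest in GFAP 1 and GFAP 5, at 99.5 CPM each, which were also the libraries with the most Tfap2e reads. GFAP 4, however, had a sum of 96.1 CPM with 2 Tfap2e reads, and GFAP 3 had 85.0 CPM with 0. A link between these markers and Tfap2e was not tested. Surface ectoderm and epidermis markers summed to 0.826 to 20.6 CPM in NG2 and 2.04 to 8.96 CPM in GFAP libraries. They were highest in NG2 3, NG2 4 and NG2 5, at 15.1, 20.1 and 20.6 CPM, led by the keratin Krt14. Of 2 tested, 0 were called by edgeR, DESeq2 or voom. By edgeR 1, Krt14, had an unadjusted p under 0.05 (12.8% of all tested genes). Krt14 was also counted among the genes that AP-2 factors bind in other tissues.

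Microglia markers summed to 389.5, 150, 30.3, 126 and 186 CPM in NG2 1 to 5 and to 87.3, 53.0, 97.6, 177 and 46.6 CPM in GFAP 1 to 5. The groups overlapped, and all 11 tested had a positive log2 fold change, as Tfap2d did, with a median of 0.87. The most abundant were the complement genes C1qb (1.03, SE 0.52) and C1qc (1.02, SE 0.48) and the receptor Csf1r (1.13, SE 0.55). NG2 1, with the highest microglial sum, had 20.9 CPM of Tfap2d, and NG2 3, with the lowest, had 17.2 CPM. GABAergic interneuron markers summed to 115 to 324 CPM in NG2 and 221 to 336 CPM in GFAP libraries (9 negative and 3 positive, median -0.14). Endothelial and mural markers summed to 10.3 to 39.6 CPM in NG2 and 9.87 to 41.0 CPM in GFAP libraries (5 negative and 4 positive, median -0.07). In the microglial, GABAergic and vascular lists 0 members were called by edgeR, DESeq2 or voom. In turn 0, 1 and 0 had an unadjusted p under 0.05 by edgeR (12.8% of all tested genes). Whether such cells contribute to the AP-2 values was not tested.

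The spread of the members within groups was compared with that of genes at a similar level, those within a factor of 2 of the member's mean CPM. The coefficient of variation of Tfap2c was 25.4% in the GFAP group, above that of 96.8% of 4327 such genes, and 6.53% without GFAP 2. In the NG2 group it was 11.8%, against a median of 13.8%. Tfap2d varied by 24.4% in NG2 and 14.3% in GFAP libraries, against medians of 17.6% and 17.7%, and by 14.1% in NG2 without NG2 5.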

How the data were processed

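RNA was amplified with SMARTer and sequenced as poly(A) libraries, per the labels' protocols. The authors' alignment used HISAT2 and their counting used featureCounts 1.5.0-p3 on GRCm38.p6, per the submitters' processing notes. The sources used here do not give the strand setting, the treatment of reads that map to several places or the annotation release. The deposited table held raw read counts per gene and FPKM for each library, per the file headers. It also held the authors' scaled group means (a signal per group), log2 fold changes and p-values, of which only the log2 fold changes of members were used.

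Counts were analysed in R 4.3.3 with edgeR 4.0.16 (TMM, filterByExpr, quasi-likelihood test, Benjamini-Hochberg adjusted p under 0.05), on all genes and all 10 libraries without covariates. The SE of a log2 fold change was its size divided by the square root of the F statistic. Alternatives were DESeq2 1.42.0, limma 3.58.1 (voom with sample weights, and limma-trend on log2(FPKM + 1) and log2(FPKM + 0.1)), other scalings and filters, a replicate block and omission of each library. The scripts were tested on simulated counts.

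The members and the 12 gene lists were chosen with earlier results of these data known. Some genes stand in 2 lists and count in each, among them Kit, Krt14 and Pax6, which is named for that reason only. Genes named were the members, Cspg4 and Gfap, genes overlapping a member, the 2 most abundant tested neighbours of a locus, up to 4 called or else 3 of the most abundant genes of a list, and the 5 genes most like each tested member. Exceptions are stated or are genes with 0 reads, and some genes that the rule names are not reported here. Library totals of 12945436 to 17569730 reads put the level of 3 reads at 0.169 to 0.228 CPM. Overlaps were taken from GENCODE M21, whose exon lengths for the 5 members equal the deposited gene lengths.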

Additional observations from a re-analysis of the deposited data

Results flagged for a closer look

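A library was singled out where its gap to the nearest other library of its group exceeded 0.71 of the group's range, Dixon's 95% value for 5 libraries. Of 36 groups of values checked, 6 met this. Chance gives about 1 in 20 for normally distributed values, which does not apply to the 3 groups below with 0 in all libraries but 1. For Tfap2c, GFAP 2 stood at 129 CPM, against 75.9 to 87.0 CPM in the other GFAP libraries. The radial glia markers summed to 2413 CPM in the same library, against 1682 to 1830 CPM in the others. The remaining AP-2 values rest on 1 to 3 reads. Tfap2a stood at 0.0628 CPM in GFAP 2, Tfap2b at 0.0682 CPM in NG2 1 and Tfap2e at 0.205 CPM in NG2 1, with 0 in the other libraries of each group. The tectum and dorsal midbrain markers summed to 2.48 CPM in NG2 5, against 1.11 to 1.43 CPM in the other NG2 libraries.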

How the results depend on the processing

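The directions of Tfap2d and Tfap2c were the same under all 21 alternatives (log2 fold changes of 1.09 to 1.35 and -0.49 to -0.19). Tfap2d, whose counts chose the family so that its calls support nothing, passed the threshold in 16 of them and in 6 of the 10 fits without 1 library, and Tfap2c in 0, by edgeR, DESeq2, voom or limma-trend. The number of genes called over the whole table, 12 higher and 12 lower in NG2, was not stable. It was 58 and 37 without the expression filter, 199 and 128 by DESeq2, 584 and 857 by voom with sample weights, and 9 and 3 by limma-trend with either pseudocount (1 or 0.1). Without 1 library it ran from 3 to 70 higher and from 0 to 47 lower. Omitting GFAP 1, GFAP 2, GFAP 3 or NG2 2 gave 3 and 0. Omission of GFAP 4 or of NG2 3 gave 4 and 1, that of GFAP 5 gave 4 and 2, and that of NG2 4 gave 6 and 6. The highest numbers, 70 and 47, came when NG2 5 was left out. Without both GFAP 2 and NG2 5, an alternative chosen after seeing the data, it was 109 and 154. The cause was not tested. The labels do not say what same-numbered libraries share beyond the number. Their deviations from the group means correlated at -0.02 to 0.08, and whether they were prepared together was not tested. With the replicate block 1 gene was higher and 0 were lower by edgeR, neither Tfap2d nor Dct was called, and Tfap2d and Tfap2c had log2 fold changes of 1.23 and -0.41. Of 504 recounts of called list members, 479 were the same, 14 stronger and 11 weaker. Apart from the neural crest and melanoblast list, with 1 lower, these counts were 0 in the main fit and could only stay or rise. That count of 1 was the same in 9 of 21 alternatives, weaker in 11 and stronger in 1, so the 479 do not measure stability. Tfap2a, Tfap2b and Tfap2e are limited by depth.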
